A study of Arabidopsis thaliana with 12 samples.

Results

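The phenylpropanoid and lignin precursor genes described here are 10 Arabidopsis thaliana genes, chosen by identifier from the 32833 genes of the count table, and all 10 passed the filter that left 19711 genes for testing. They are PAL1 (AT2G37040), PAL2 (AT3G53260), C4H (AT2G30490), 4CL1 (AT1G51680), 4CL2 (AT3G21240), 4CL3 (AT1G65060), HCT (AT5G48930), C3H1 (AT2G40890), CCoAOMT1 (AT4G34050) and F5H (AT4G36220). RNA sequencing libraries came from whole seedlings in 4 groups of 3: the line bbx28-5 in simulated shade, the accession Col-0 in simulated shade, bbx28-5 in white light and Col-0 in white light. All seedlings were kept on agar and water in short days (10 h light, 14 h dark) for 2 days, followed by 4 h in their final light. Simulated shade had a photosynthetically active radiation of 20 and white light of 90, red light of 0.8 and 9.13, blue light of 1.3 and 8.1, and far-red light of 5.5 and 8.3, all in µmol per square metre and second. Red divided by far-red was 0.145 in shade and 1.1 in white light. BBX28 is a B-box zinc finger protein, and the sources used here do not say what lesion bbx28-5 carries, how many seedlings a library holds or whether there were harvest batches. The labels describe 3 biological replicates per group and do not say whether these came from separate cultures. The p-values thus measure the spread between these libraries, part of which may be technical.

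The phenylpropanoid pathway turns phenylalanine into hydroxycinnamoyl-CoA esters. PAL removes ammonia from phenylalanine, C4H hydroxylates the resulting cinnamate, and 4CL joins coumarate to coenzyme A. From there HCT and C3H1 lead by way of shikimate esters towards caffeoyl-CoA, CCoAOMT1 methylates it towards guaiacyl units, and F5H opens the branch to syringyl units and sinapate esters. In seedlings the same precursors feed lignin of the xylem, suberin and the Casparian strip of the root, coumarins, sinapate esters and flavonoids, and flavonoids and sinapate esters are known as sunscreens.

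Total counts per library ran from 10614484 to 14298869, and 3 counts, taken as the detection floor, equalled 0.2 to 0.346 CPM. CPM are counts scaled to library size, here adjusted with the TMM factors of edgeR (trimmed mean of log ratios), and fold changes on the log2 scale with a standard error (SE) and a p-value adjusted over all 19711 genes, called at 0.05. Replicate 2 of bbx28-5 in shade stood apart, with 2151 genes at least 2-fold from its group mates against 129 to 742 genes in the other 11 libraries, and results that rest on it are given with and without it. TMM factors averaged 0.841 ± 0.0442 in bbx28-5 in shade and 1.04 to 1.08 in the other groups, so that scaling by total counts moved the median over all genes by -0.34 (shade effect in bbx28-5), -0.304 (bbx28-5 against Col-0 in shade) and -0.291 (interaction). BBX28 itself had 144 to 210 CPM in bbx28-5 in shade, 104 to 115 CPM in Col-0 in shade, 99.8 to 108 CPM in white-lit bbx28-5 and 64.1 to 74.2 CPM in white-lit Col-0. Without knowledge of the lesion this level does not check the genotype labels. In whole seedlings, fewer cells of a type and less RNA per cell cannot be told apart.

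AC elements are short sequences bound by MYB factors of the lignin pathway. Of the 10 genes, 5 held an AC element in the 300 bases before their annotated start, among 27443 such windows of which 7.16% held one. AC-I (ACCTACC), AC-II (ACCAACC) and AC-III (ACCTAAC) were searched on both strands, and none of the matches overlapped another. AC-I is present in 1.33%, AC-II in 3.18% and AC-III in 2.93% of all windows. The sequences of 5 genes are shown because the ligase genes had shade effects of different size and because the ratio of CCoAOMT1 to HCT counts differed between the genotypes. They were read from the TAIR10.1 genome in the direction of transcription, and capitals mark AC elements. The windows are 4CL1 at chr1:19161738-19162037 (minus strand), 4CL2 at chr3:7457405-7457704 (minus), 4CL3 at chr1:24171636-24171935 (minus), HCT at chr5:19838236-19838535 (minus) and CCoAOMT1 at chr4:16310109-16310408 (plus).
4CL1: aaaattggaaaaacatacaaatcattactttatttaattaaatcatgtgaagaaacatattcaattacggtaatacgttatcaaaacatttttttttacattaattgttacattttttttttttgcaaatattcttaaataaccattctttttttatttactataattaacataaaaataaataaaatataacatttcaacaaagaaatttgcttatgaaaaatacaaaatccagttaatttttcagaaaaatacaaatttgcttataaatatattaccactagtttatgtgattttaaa
4CL2: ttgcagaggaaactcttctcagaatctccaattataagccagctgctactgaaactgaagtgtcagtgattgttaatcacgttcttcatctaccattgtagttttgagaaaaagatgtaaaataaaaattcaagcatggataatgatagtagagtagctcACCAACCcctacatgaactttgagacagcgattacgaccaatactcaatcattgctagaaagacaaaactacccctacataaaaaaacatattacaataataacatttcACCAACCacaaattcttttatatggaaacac
4CL3: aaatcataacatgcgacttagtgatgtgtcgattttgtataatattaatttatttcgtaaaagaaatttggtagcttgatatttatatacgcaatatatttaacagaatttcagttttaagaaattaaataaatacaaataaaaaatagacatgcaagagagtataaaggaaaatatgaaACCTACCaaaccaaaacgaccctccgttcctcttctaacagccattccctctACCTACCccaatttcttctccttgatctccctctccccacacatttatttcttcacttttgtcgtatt
HCT: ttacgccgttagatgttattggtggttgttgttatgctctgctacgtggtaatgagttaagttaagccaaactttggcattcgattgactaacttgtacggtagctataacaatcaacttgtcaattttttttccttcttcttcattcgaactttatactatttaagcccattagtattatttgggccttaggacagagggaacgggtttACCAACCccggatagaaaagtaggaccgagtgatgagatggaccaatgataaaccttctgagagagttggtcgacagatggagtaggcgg
CCoAOMT1: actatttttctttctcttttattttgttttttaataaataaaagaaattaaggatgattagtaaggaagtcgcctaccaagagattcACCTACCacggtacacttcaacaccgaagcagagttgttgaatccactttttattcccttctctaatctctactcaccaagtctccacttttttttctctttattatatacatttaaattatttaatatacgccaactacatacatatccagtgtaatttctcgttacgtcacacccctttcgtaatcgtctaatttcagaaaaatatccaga

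The 4CL3 window held 2 AC-I elements, at 120 and 68 bases before the start, and the 4CL2 window 2 AC-II elements, at 140 and 31 bases before it. HCT held 1 AC-II element at 90 bases and CCoAOMT1 1 AC-I element at 213 bases before the start. C3H1, not printed, held 1 AC-II element at 22 bases before its start. None of these letters occurred in the windows of PAL1, PAL2, C4H, 4CL1 and F5H, and the G-box letters CACGTG, which 7.09% of all windows hold, occurred in none of the 10. A match is a description of the letters and not of binding.

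**Figure D1:**
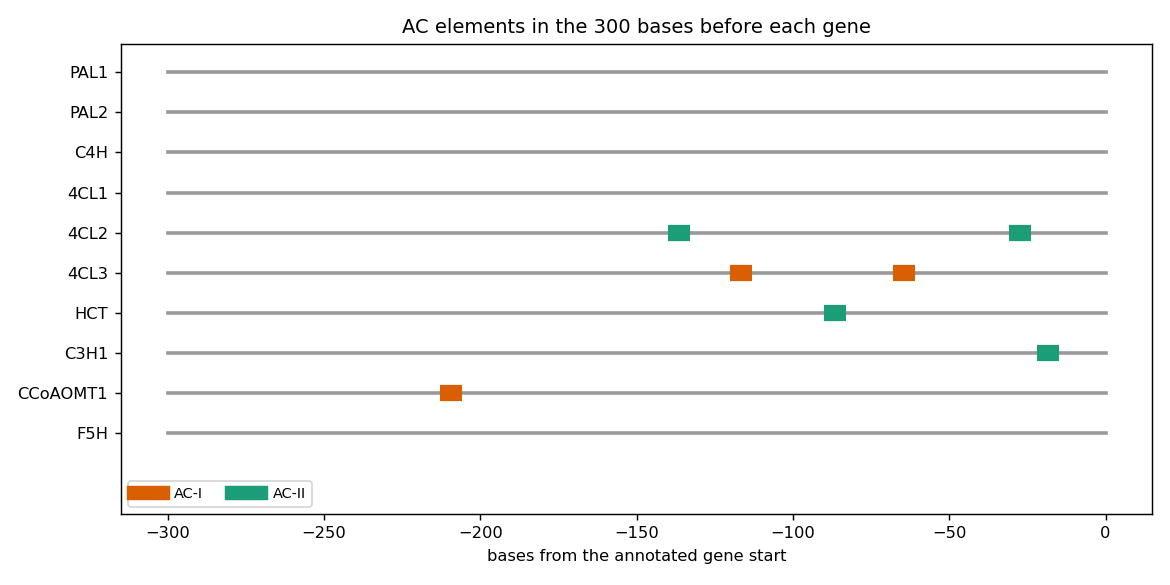
Position of AC elements in the 300 bases before the annotated start of each of the 10 genes, with the start at 0 on the right of the x axis (bases). Orange blocks are AC-I and green blocks AC-II: 4CL2 and 4CL3 have 2 each, HCT, C3H1 and CCoAOMT1 have 1 each, and the other 5 genes have none.

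The question of the light comparison was how transcripts respond to 4 h of shade in each genotype. In bbx28-5, 9 of the 10 genes fell in shade and none rose, with a median log2 change of -2.05 over the 10, and C4H did not pass. In Col-0 all 10 fell, with a median of -1.30. Of all tested genes, 33.1% fell and 34.4% rose in bbx28-5 (67.5% together), and 30.4% fell and 29% rose in Col-0 (59.4% together), with medians near 0.00 and -0.02. Every bbx28-5 shade library lay below every bbx28-5 white light library for 9 genes and above for C4H, orders that 34.3% and 33.8% of all genes showed. In Col-0 all 10 genes lay below in this way, as did 36.7% of all genes, while 36.1% lay above. With total counts, 9043 of all genes fell and 4644 rose in bbx28-5, against 6522 and 6786 with TMM. Leaving out any 1 of the 12 libraries left both counts of falls as they were.

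PAL1 and PAL2 encode phenylalanine ammonia-lyases, the entry enzymes of the pathway. PAL1 lies at chr2:15557367-15560755 and PAL2 at chr3:19744018-19747114, both on the minus strand with 2 exons. PAL1 had 20.6, 12.9 and 22.0 CPM in bbx28-5 in shade, 56.5, 63.1 and 66.3 CPM in Col-0 in shade, 164, 165 and 163 CPM in bbx28-5 under white light and 184, 170.1 and 168 CPM in Col-0 in white light. The 3 bbx28-5 shade libraries were the lowest of all 12, and each shade group lay apart from its white light group. PAL1 fell by 3.14 ± 0.154 in shade in bbx28-5 (SE, edgeR adjusted p = 4.98e-10), 8.83-fold, and by 1.49 ± 0.14 in Col-0 (edgeR adjusted p = 5.38e-07), 2.81-fold. Within shade it was lower in bbx28-5 than in Col-0 by a log2 difference of -1.74 ± 0.15 (edgeR adjusted p = 2.83e-06), and in white light the difference was -0.09 (95% interval -0.38 to 0.20, edgeR adjusted p = 0.793). The interaction, which is the log2 shade effect of bbx28-5 less that of Col-0, was -1.65 ± 0.202 (edgeR adjusted p = 0.000475), so the fall of PAL1 was deeper in bbx28-5. Without the divergent replicate 2 of bbx28-5 in shade the interaction was -1.42 (edgeR adjusted p = 9e-09).

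PAL2 had 54.6, 26.3 and 49.4 CPM in bbx28-5 in shade, 61.6, 66.4 and 65.3 CPM in Col-0 in shade, 188, 199 and 181 CPM in bbx28-5 under white light and 178, 179 and 165 CPM in Col-0 in white light. Replicate 2 of bbx28-5 in shade was far below its group mates, and the 3 libraries still lay below all of Col-0 in shade. PAL2 fell by 2.12 ± 0.188 in bbx28-5 (edgeR adjusted p = 1.95e-07) and by 1.43 ± 0.182 in Col-0 (edgeR adjusted p = 1.08e-05). In shade it was lower in bbx28-5 by a log2 difference of -0.57 ± 0.185 (edgeR adjusted p = 0.0288). That difference was -0.28 without replicate 2 of bbx28-5 in shade (edgeR adjusted p = 0.00501). Its adjusted p lay between 0.05 and 0.0734 without any 1 of the 3 Col-0 shade libraries or without replicate 1 of Col-0 in white light. Its interaction of -0.69 ± 0.256 did not pass (edgeR adjusted p = 0.102), and without replicate 2 of bbx28-5 in shade it was -0.41 and did (edgeR adjusted p = 0.00441), as it also did without replicate 1 of that group. The coding sequences of PAL1 and PAL2 are 84.0% identical, with a longest identical run of 80 bases, so reads inside such runs cannot be placed with certainty.

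C4H encodes cinnamate 4-hydroxylase, a cytochrome P450 that acts directly after PAL, and lies at chr2:12993625-12996012 (minus strand, 3 exons). C4H had 238, 275 and 248 CPM in bbx28-5 in shade, 181, 182 and 190.4 CPM in Col-0 in shade, 232, 226 and 223 CPM in bbx28-5 under white light and 228, 228 and 224 CPM in Col-0 in white light. The bbx28-5 shade libraries were the highest of all 12 and the Col-0 shade libraries the lowest, with no overlap between any shade group and white light. The shade effect was 0.16 ± 0.0809 in bbx28-5 (edgeR adjusted p = 0.0937), which did not pass. With total counts it turned to -0.18 and passed (edgeR adjusted p = 0.0404), beside the shift of all genes of -0.34. In Col-0 C4H fell by 0.30 ± 0.0809 (edgeR adjusted p = 0.006). In shade it was higher in bbx28-5 by 0.46 ± 0.0811 (edgeR adjusted p = 0.000758), which became 0.15 with total counts and did not pass (edgeR adjusted p = 0.123). Its interaction of 0.46 ± 0.114 passed (edgeR adjusted p = 0.0232), and was lost without any 1 of 7 libraries, at adjusted p up to 0.0619. The 7 were all 3 of bbx28-5 in white light, replicates 1 and 2 of Col-0 in shade and replicates 2 and 3 of Col-0 in white light.

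**Figure D2:**
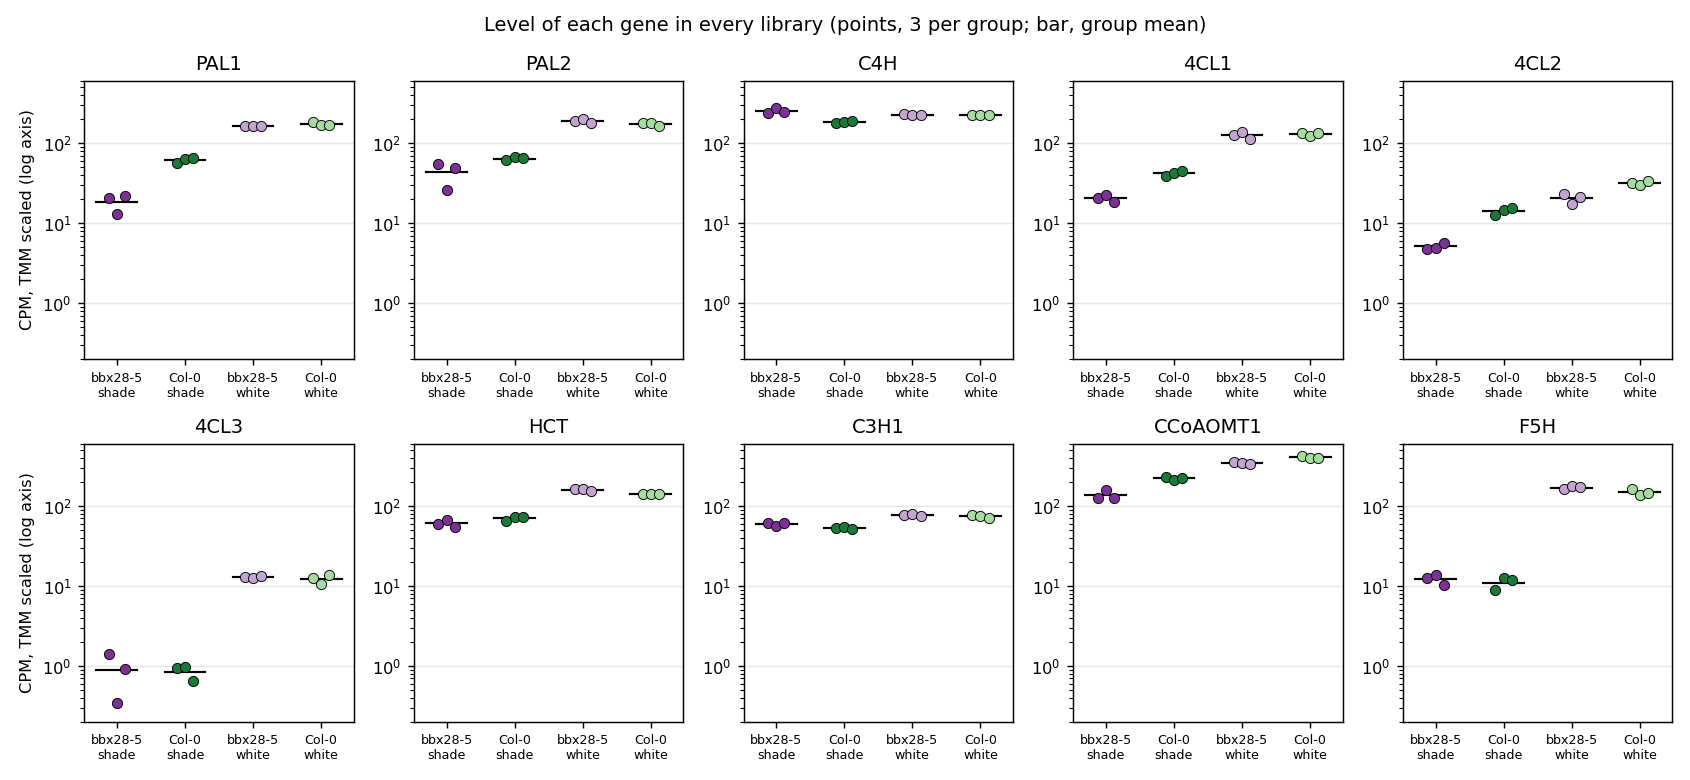
Level of each gene in every library (points, 3 per group, with the group mean as a bar) in CPM on a log y axis. PAL1, PAL2, 4CL1, 4CL2 and CCoAOMT1 are lowest in bbx28-5 in shade. 4CL3 and F5H are low in shade in both genotypes at similar levels, and C4H stays between 181 and 275 CPM throughout.

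The 4CL genes encode 4-coumarate:CoA ligases. In Arabidopsis 4CL1 and 4CL2 are known mainly for lignin and 4CL3 for flavonoids. 4CL1 lies at chr1:19158746-19161737, 4CL2 at chr3:7454269-7457404 and 4CL3 at chr1:24167202-24171635, all on the minus strand. 4CL1 had 20.6, 22.3 and 18.6 CPM in bbx28-5 in shade, 39.2, 41.9 and 45.0 CPM in Col-0 in shade, 125, 138 and 114 CPM in bbx28-5 under white light and 136, 122 and 133 CPM in Col-0 in white light. In shade the genotypes lay fully apart, and in white light they overlapped. 4CL1 fell by 2.62 ± 0.111 in bbx28-5 (edgeR adjusted p = 1.35e-10) and by 1.63 ± 0.104 in Col-0 (edgeR adjusted p = 1.13e-08). In shade it was lower in bbx28-5 by a log2 difference of -1.04 ± 0.109 (edgeR adjusted p = 1.28e-05). The interaction was -0.99 ± 0.148 (edgeR adjusted p = 0.00152), a deeper fall in bbx28-5.

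4CL2 had 4.79, 4.96 and 5.63 CPM in bbx28-5 in shade, 12.7, 14.5 and 15.5 CPM in Col-0 in shade, 22.9, 17.3 and 21.0 CPM in bbx28-5 under white light and 31.8, 30.0 and 33.4 CPM in Col-0 in white light. It was the only one of the 10 genes called between the genotypes in white light, where bbx28-5 was lower by a log2 difference of -0.64 ± 0.116 (edgeR adjusted p = 0.00309). Of all tested genes, 6.08% were called lower and 3.8% higher there, 9.88% together. A length offset called 1277 of all genes lower and 1487 higher there, against 1198 and 749 without it. In shade the difference was -1.47 ± 0.144 (edgeR adjusted p = 7.42e-06). 4CL2 fell by 1.98 ± 0.141 in shade in bbx28-5 (edgeR adjusted p = 2e-08) and by 1.16 ± 0.118 in Col-0 (edgeR adjusted p = 1.26e-06), with an interaction of -0.83 ± 0.186 (edgeR adjusted p = 0.0135). The coding sequences of 4CL1 and 4CL2 are 81.6% identical with a longest identical run of 35 bases.

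4CL3 had 1.41, 0.346 and 0.923 CPM in bbx28-5 in shade, 0.934, 0.955 and 0.641 CPM in Col-0 in shade, 13.1, 12.6 and 13.3 CPM in bbx28-5 under white light and 12.5, 10.4 and 13.8 CPM in Col-0 in white light. The shade libraries rest on only 3 to 14 counts each, and in both lights the genotypes overlapped. 4CL3 fell by 3.83 ± 0.26 in bbx28-5 (edgeR adjusted p = 1.24e-08), 14.2-fold, and by 3.85 ± 0.243 in Col-0 (edgeR adjusted p = 1.03e-08), 14.4-fold. Its interaction was 0.02 (95% interval -0.84 to 0.89, edgeR adjusted p = 0.979), an interval that at these counts still holds the size of the 4CL2 interaction.

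HCT and C3H1 act together on the shikimate ester step, HCT as the acyltransferase and C3H1 as the cytochrome P450 that hydroxylates the ester. HCT lies at chr5:19836299-19838235 and C3H1 at chr2:17058053-17060652, both on the minus strand. HCT had 59.6, 66.5 and 55.2 CPM in bbx28-5 in shade, 65.3, 72.1 and 71.9 CPM in Col-0 in shade, 164, 162 and 155 CPM in bbx28-5 under white light and 141, 139 and 140.5 CPM in Col-0 in white light. The genotypes overlapped in shade by 1 library, and in white light bbx28-5 lay above Col-0. HCT fell by 1.41 ± 0.0914 in bbx28-5 (edgeR adjusted p = 7.66e-09) and by 1.01 ± 0.0899 in Col-0 (edgeR adjusted p = 3.1e-07). The interaction of -0.40 ± 0.127 did not pass (edgeR adjusted p = 0.0599), and passed without replicate 2 of bbx28-5 in shade at -0.45 (edgeR adjusted p = 0.00124).

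C3H1 moved little by comparison, with 55.4 to 61.8 CPM in bbx28-5 in shade, 51.2 to 54.3 CPM in Col-0 in shade, 73.9 to 79.7 CPM in bbx28-5 under white light and 70.9 to 77.6 CPM in Col-0 in white light. It fell by 0.36 ± 0.086 in bbx28-5 (edgeR adjusted p = 0.00187) and by 0.48 ± 0.0855 in Col-0 (edgeR adjusted p = 0.000223), and its interaction was 0.12 (95% interval -0.14 to 0.38, edgeR adjusted p = 0.556). Its gene shares 70 exonic bases with CYSA (AT2G40880) on the other strand, which averaged 136 CPM in bbx28-5 in shade, 133 CPM in Col-0 in shade, 61.5 CPM in bbx28-5 under white light and 80.6 CPM in Col-0 in white light. The sources used here do not name the strand setting of the counting, so reads of the shared bases cannot be told apart. A further overlap of 24 bases, with an lncRNA gene at less than 0.08 CPM on average in every group, concerns C3H1, and one of 24 bases with a similarly low gene concerns 4CL1.

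CCoAOMT1 encodes caffeoyl-CoA O-methyltransferase and lies at chr4:16310409-16312308 on the plus strand. It had 124, 159 and 126 CPM in bbx28-5 in shade, 232, 208 and 226 CPM in Col-0 in shade, 349.5, 343 and 331 CPM in bbx28-5 under white light and 417, 402 and 402 CPM in Col-0 in white light. All 4 groups lay apart from each other. CCoAOMT1 fell by 1.32 ± 0.102 in bbx28-5 (edgeR adjusted p = 4.4e-08) and by 0.87 ± 0.1 in Col-0 (edgeR adjusted p = 3.83e-06). In shade it was lower in bbx28-5 by a log2 difference of -0.70 ± 0.101 (edgeR adjusted p = 0.000158). In white light the difference of -0.26 did not pass (edgeR adjusted p = 0.136). The interaction of -0.45 ± 0.141 did not pass either (edgeR adjusted p = 0.0593), and without replicate 2 of bbx28-5 in shade it was -0.54 and passed (edgeR adjusted p = 9.15e-05).

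F5H, ferulate 5-hydroxylase, is a cytochrome P450 needed for syringyl lignin and sinapate esters and lies at chr4:17137313-17139777 (minus strand). F5H had 12.5, 13.6 and 10.3 CPM in bbx28-5 in shade, 8.80, 12.4 and 11.7 CPM in Col-0 in shade, 161, 178 and 171 CPM in bbx28-5 under white light and 165, 138 and 147 CPM in Col-0 in white light. The lights lay more than 10-fold apart and the genotypes overlapped in each light. It fell by 3.81 ± 0.144 in bbx28-5 (edgeR adjusted p = 5.3e-11), 14.0-fold, and by 3.78 ± 0.142 in Col-0 (edgeR adjusted p = 9.67e-11), 13.7-fold. Only 0.999% of all tested genes had as low a log2 change in bbx28-5 and 0.715% in Col-0. The interaction was -0.03 (95% interval -0.44 to 0.38, edgeR adjusted p = 0.928), an interval that does not reach the interactions of PAL1, 4CL1 and 4CL2.

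**Figure D3:**
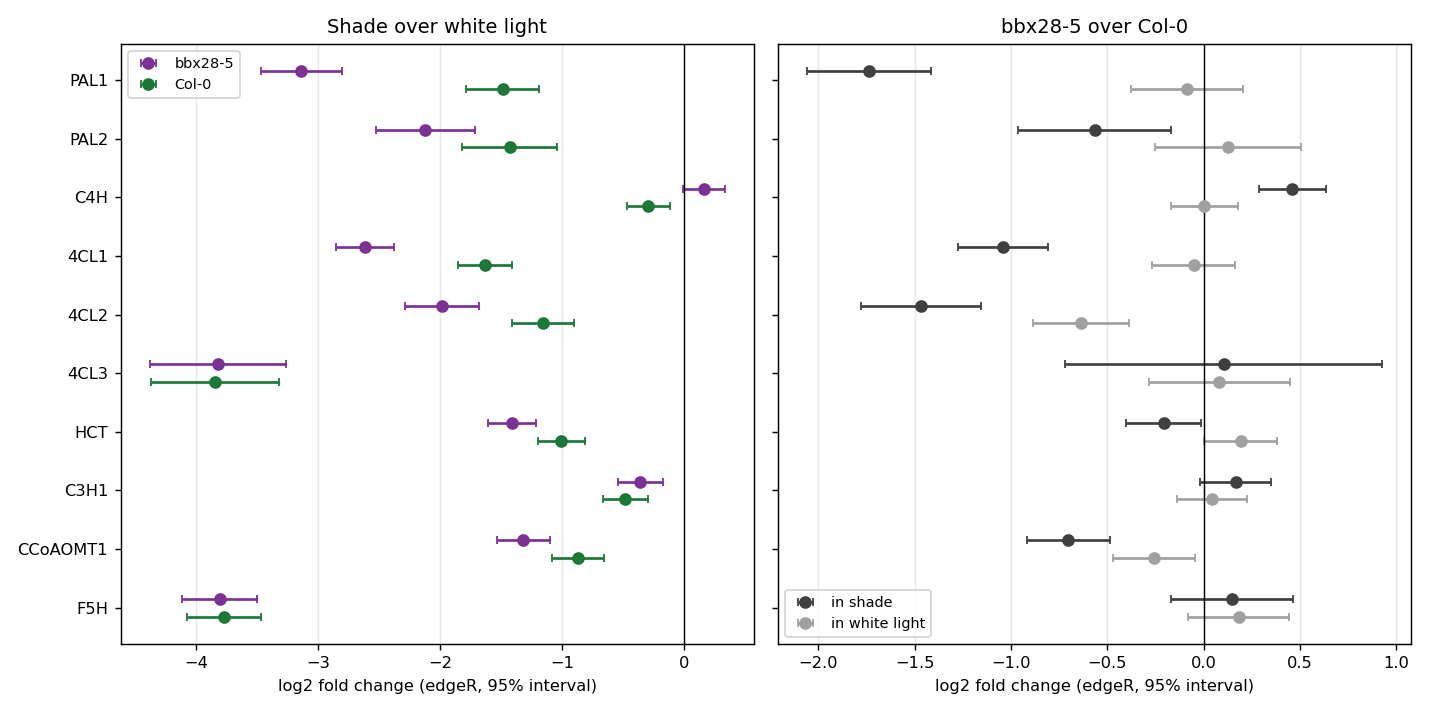
Log2 fold changes of the 10 genes with 95% intervals from the edgeR fit. On the left, shade over white light runs from about -3.8 for 4CL3 and F5H in both genotypes to values near 0 for C4H, and on the right, bbx28-5 over Col-0 in shade (dark) was called lower for PAL1, PAL2, 4CL1, 4CL2 and CCoAOMT1 and higher for C4H, while in white light (grey) 4CL2 is the gene called.

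The question of the genotype comparison was what bbx28-5 changes under each light. In shade, 5 of the 10 genes were lower in bbx28-5 (PAL1, PAL2, 4CL1, 4CL2 and CCoAOMT1) and 1 was higher (C4H), with a median log2 difference of -0.39 over the 10. Of all tested genes, 14.5% were lower and 20.9% higher (35.4% together), with a median of 0.03. All 3 bbx28-5 shade libraries lay below all 3 of Col-0 for the same 5 genes and above them for C4H and C3H1, orders that 19% and 24% of all genes showed. HCT (-0.21, edgeR adjusted p = 0.0912) and C3H1 (0.17, edgeR adjusted p = 0.154) did not pass and both did without replicate 2 of bbx28-5 in shade, at -0.25 and 0.24. With total counts HCT was -0.52 and passed (edgeR adjusted p = 0.000335), beside the shift of all genes of -0.304, and C3H1 turned to -0.14 without passing. That scaling called 6536 of all genes lower and 1507 higher in bbx28-5 in shade, against 2850 and 4124 with TMM. 4CL3 (0.10, 95% interval -0.72 to 0.93) and F5H (0.15, 95% interval -0.17 to 0.46) did not pass. In white light the median over the 10 was 0.02. There bbx28-5 lay wholly below Col-0 for PAL1, 4CL2 and CCoAOMT1 and wholly above for PAL2 and HCT, as 20.2% and 19.4% of all genes did. HCT (0.19) and CCoAOMT1 passed there without replicate 2 of bbx28-5 in shade.

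For the interaction, 3 of the 10 genes were called lower (PAL1, 4CL1 and 4CL2) and 1 higher (C4H), against 3.79% and 6.52% of all tested genes (10.3% together). The median over the 10 was -0.42 and over all genes 0.05. Without replicate 2 of bbx28-5 in shade the genes called lower were 6, with PAL2, HCT and CCoAOMT1 added. The same 3 were added with total counts, at -0.97, -0.70 and -0.75, where 2641 of all genes were called lower and 479 higher, against 747 and 1285 with TMM. The comparisons share groups, since bbx28-5 in shade enters the shade, the genotype and the interaction contrast, so their calls are not separate evidence.

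Ratios of counts within a library do not depend on the scaling between libraries. The share of PAL1 in the counts of PAL1 and PAL2 was 30.4 ± 2.82% in bbx28-5 in shade, 49.0 ± 1.27% in Col-0 in shade, 46.4 ± 1.10% in bbx28-5 in white light and 50.03 ± 1.13% in Col-0 in white light (SD, n = 3 each). All 3 bbx28-5 shade libraries, at 27.4, 32.9 and 30.8%, lay below the other 9. The share was lower in bbx28-5 by a mean difference of -11.1 percentage points (p = 0.005, adjusted over 6 tests 0.01) and in shade by -8.54 points (p = 0.015, adjusted 0.0225), by two-sided exact permutation tests over 400 arrangements within light or genotype. The smallest p these tests allow is 0.005. Each difference is a mean over both genotypes or both lights, and for the PAL1 share these were unlike. In Col-0 the shade libraries, at 47.9, 48.7 and 50.4%, overlapped those of white light, at 50.8, 48.7 and 50.5%. The shade difference thus lay mostly in bbx28-5, and the genotype difference mostly in shade.

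The share of 4CL3 in the counts of 4CL1, 4CL2 and 4CL3 was 3.41 ± 2.03% in bbx28-5 in shade, 1.49 ± 0.388% in Col-0 in shade, 8.18 ± 0.723% in bbx28-5 in white light and 6.998 ± 0.626% in Col-0 in white light (SD, n = 3 each). It was lower in shade by -5.14 points (exact permutation p = 0.005, adjusted 0.01). The difference between bbx28-5 and Col-0 of 1.55 points (exact permutation p = 0.035, adjusted 0.042) no longer passed without any 1 of 9 libraries or on the log2 odds scale. The 9 are all but replicate 2 of bbx28-5 in shade, replicate 2 of bbx28-5 in white light and replicate 3 of Col-0 in white light. The log2 ratio of CCoAOMT1 to HCT counts was 1.17 ± 0.103 in bbx28-5 in shade, 1.67 ± 0.152 in Col-0 in shade, 1.09 ± 0.0086 in bbx28-5 in white light and 1.54 ± 0.0225 in Col-0 in white light (SD, n = 3 each). It was lower in bbx28-5 by -0.47 (exact permutation p = 0.005, adjusted 0.01). Its shade difference of 0.11 did not pass (exact permutation p = 0.07, adjusted 0.07), and passed without replicate 1 of bbx28-5 in shade or replicate 2 of Col-0 in shade.

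**Figure D4:**
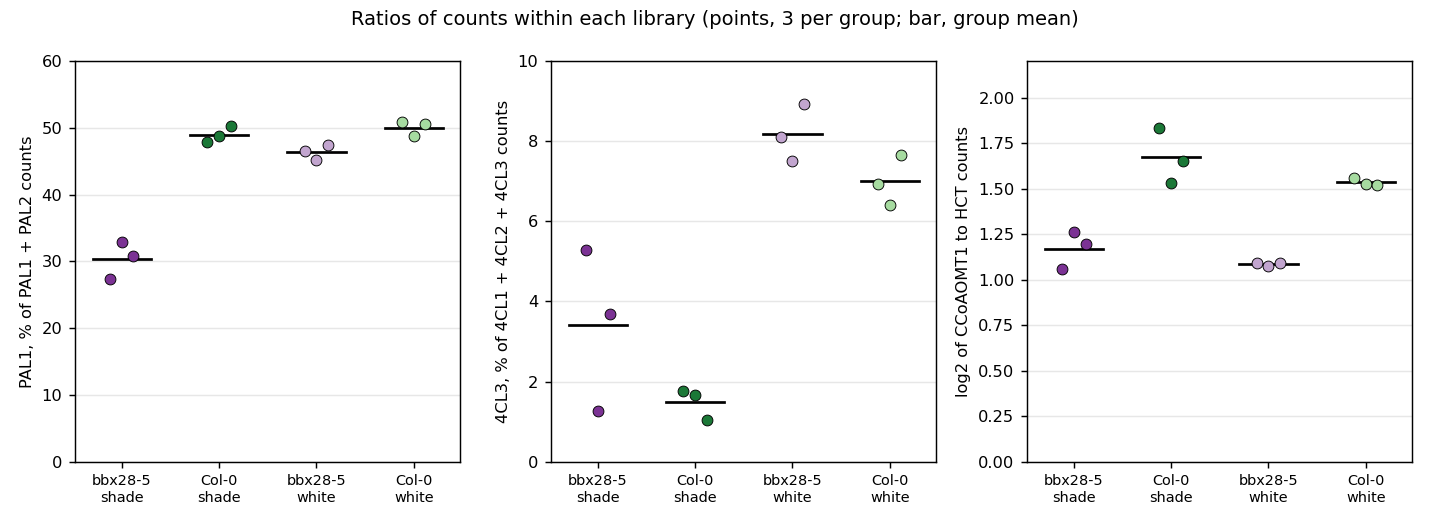
Ratios of counts within each library (points, 3 per group, with the group mean as a bar). PAL1 takes 27.4 to 32.9% of PAL1 and PAL2 counts in bbx28-5 in shade and more in the other 9 libraries, the 4CL3 share is lower in shade in both genotypes, and the log2 ratio of CCoAOMT1 to HCT is lower in bbx28-5 in both lights.

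Per length, as CPM per kilobase of exon, CCoAOMT1 was the highest of the 10 genes in 3 groups, at 143 in Col-0 in shade, 220 in bbx28-5 in white light and 263 in Col-0 in white light, and C4H came next there. In bbx28-5 in shade C4H was highest at 122 ± 9.11 and CCoAOMT1 followed at 88.1 ± 12.7 (SD, n = 3), without overlap. HCT came after them in every group, at 33.6 and 38.8 in bbx28-5 and Col-0 in shade and 89.2 and 78.0 in bbx28-5 and Col-0 in white light. F5H followed HCT in white light with overlapping libraries, at 85.4 in bbx28-5 and 75.3 in Col-0. In shade F5H was at 6.10 and 5.51, in place 8 in bbx28-5 and 9 in Col-0, overlapping PAL1 in bbx28-5 and 4CL2 in Col-0. C3H1 stood at 31.6 and 28.2 in shade, where it was the fourth, and at 40.6 and 39.4 in white light, for bbx28-5 and Col-0 in turn. Its libraries overlapped those of HCT in bbx28-5 in shade. PAL2 and PAL1 overlapped in Col-0 in both lights and lay apart in bbx28-5, at 15.04 and 6.31 in shade and 65.7 and 55.9 in white light. 4CL3 was the lowest in all 4 groups.

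Other genes of the pathway were taken from lists that do not include the 10. Calls in each list stand beside those of all tested genes. Of these, 33.1% fell and 34.4% rose in shade in bbx28-5, and 30.4% fell and 29% rose in Col-0. In bbx28-5 against Col-0, 14.5% were lower and 20.9% higher in shade, and 6.08% lower and 3.8% higher in white light. For the interaction 3.79% were called lower and 6.52% higher. Of 14 further general phenylpropanoid and monolignol enzymes, 3 rose and 8 fell in shade in bbx28-5 (median -0.61), and 3 rose and 5 fell in Col-0 (median -0.17). PAL3, a further ammonia-lyase, fell by 2.80 ± 0.133 in bbx28-5 and by 2.56 ± 0.12 in Col-0. COMT1, the methyltransferase of the syringyl branch, fell by 1.35 ± 0.087 and 1.30 ± 0.0864, and CAD4, which reduces the aldehydes to monolignols, by 1.62 ± 0.101 and 1.21 ± 0.0985, each in bbx28-5 and Col-0. ATR1, a reductase that supplies electrons to cytochromes P450, rose by 1.25 ± 0.127 in Col-0. In bbx28-5 it was also higher in shade, at 223, 145 and 202 CPM against 109, 118 and 116 CPM in white light. Its interaction of -0.53 ± 0.178 did not pass (edgeR adjusted p = 0.0757). Between the genotypes in shade 5 of the 14 were lower in bbx28-5 and 1 was higher, and in white light 3 were lower and none higher.

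PAL4 was the 1 gene of these 14 with a called interaction. It had 5.87, 3.81 and 4.25 CPM in bbx28-5 in shade, 18.2, 21.6 and 20.4 CPM in Col-0 in shade, 18.5, 16.4 and 18.2 CPM in bbx28-5 under white light and 22.6, 21.9 and 21.5 CPM in Col-0 in white light. The bbx28-5 shade libraries lay far below the other 9, and its interaction was -1.80 ± 0.188 (edgeR adjusted p = 0.000156), next to that of PAL1. CCR2, a cinnamoyl-CoA reductase, was lower in bbx28-5 by a log2 difference of -1.63 ± 0.179 in shade (edgeR adjusted p = 1.89e-05) and of -1.14 ± 0.156 in white light (edgeR adjusted p = 0.000413).

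Of 7 lignin polymerisation genes, 6 were tested. In shade 1 rose and 3 fell in bbx28-5 (median -0.33), and 1 rose and 2 fell in Col-0 (median -0.02). LAC11, a laccase that couples monolignols, had 5.00, 4.39 and 4.71 CPM in bbx28-5 in shade, 15.1, 14.2 and 14.0 CPM in Col-0 in shade, 18.7, 19.3 and 14.8 CPM in bbx28-5 under white light and 19.9, 21.7 and 17.0 CPM in Col-0 in white light. It was lowest in bbx28-5 in shade, with an interaction of -1.47 ± 0.193 (edgeR adjusted p = 0.00069). LAC17, a second laccase, had an interaction of -0.86 ± 0.222 (edgeR adjusted p = 0.026), lost at adjusted p of 0.0661 to 0.0683 without replicate 1 or 2 of bbx28-5 in white light, replicate 3 of Col-0 in shade or replicate 3 of Col-0 in white light. Between the genotypes 3 of the 6 were lower in bbx28-5 in shade and 2 in white light, and none was higher.

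Of 8 genes of sinapate esters and glucosyltransferases, 7 were tested, and the members went both ways in shade. In bbx28-5 3 rose and 4 fell (median -1.47), and in Col-0 2 rose and 4 fell (median -0.97). SNG1, which makes sinapoylmalate, had 1465, 1541 and 1467 CPM in bbx28-5 in shade, 869, 927 and 907 CPM in Col-0 in shade, 610.1, 595 and 622 CPM in bbx28-5 under white light and 445, 485 and 491 CPM in Col-0 in white light. It rose in shade by 1.29 ± 0.0795 in bbx28-5 (edgeR adjusted p = 4.6e-09) and by 0.93 ± 0.079 in Col-0 (edgeR adjusted p = 1.97e-07), while F5H of the same branch fell. UGT84A2, the sinapate glucosyltransferase, fell by 1.98 ± 0.148 in bbx28-5 and by 2.13 ± 0.144 in Col-0. UGT72E2, which glucosylates monolignols, fell by 1.47 ± 0.153 and 1.26 ± 0.131. UGT84A3, a hydroxycinnamate glucosyltransferase, was higher in bbx28-5 by 1.44 ± 0.121 in shade and by 0.72 ± 0.121 in white light. Between the genotypes 2 of the 7 were higher and 3 lower in bbx28-5 in each light.

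Of 6 coumarin genes 4 were tested, and in each genotype 2 of them fell in shade and none rose (medians -0.66 in bbx28-5 and -0.45 in Col-0). Of all tested genes 67.5% in bbx28-5 and 59.4% in Col-0 were called in either direction. F6'H1, which makes the precursor of scopoletin in roots, had 0.979, 0.923 and 0.923 CPM in bbx28-5 in shade, 4.60, 4.85 and 3.42 CPM in Col-0 in shade, 5.65, 4.24 and 4.30 CPM in bbx28-5 under white light and 18.2, 17.8 and 12.6 CPM in Col-0 in white light. It was lower in bbx28-5 by a log2 difference of -2.18 ± 0.283 in shade (edgeR adjusted p = 7.3e-05) and of -1.76 ± 0.181 in white light (edgeR adjusted p = 3.7e-05). No coumarin gene had a called interaction.

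Of 17 regulators and F-box proteins 13 were tested, and 4 rose and 4 fell in bbx28-5 (median -0.23) and 4 rose and 3 fell in Col-0 (median 0.09). Such calls were no more frequent here than the 67.5% of all tested genes in bbx28-5 and 59.4% in Col-0. KFB20, a Kelch repeat F-box protein known to mark PAL enzymes for degradation, had 495, 525 and 433 CPM in bbx28-5 in shade, 243, 280 and 271 CPM in Col-0 in shade, 45.5, 43.9 and 45.6 CPM in bbx28-5 under white light and 35.4, 41.4 and 33.9 CPM in Col-0 in white light. It rose by 3.43 ± 0.112 in bbx28-5 (edgeR adjusted p = 1.87e-11) and by 2.84 ± 0.11 in Col-0 (edgeR adjusted p = 1.22e-10), the opposite direction to the PAL1 and PAL2 transcripts. PAL protein was not measured, and a link of KFB20 to the PAL transcripts was not tested. KFB01, a related F-box protein, rose by 1.94 ± 0.156 and 1.59 ± 0.154. MYB4, a repressor of C4H, had 2.94, 3.58 and 2.68 CPM in bbx28-5 in shade, 7.60, 10.3 and 7.27 CPM in Col-0 in shade, 15.8, 16.8 and 16.9 CPM in bbx28-5 under white light and 21.1, 19.9 and 24.2 CPM in Col-0 in white light. It fell by 2.43 ± 0.172 in bbx28-5 and by 1.38 ± 0.14 in Col-0, with an interaction of -1.06 ± 0.226 (edgeR adjusted p = 0.0106). Between the genotypes 1 of the 13 was higher and 4 lower in bbx28-5 in shade, and none was called in white light.

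Of 11 genes of the flavonoid branch 9 were tested, and in each genotype 8 of them fell in shade and none rose (medians -2.80 in bbx28-5 and -2.51 in Col-0, the same with genes of 3 or fewer counts in a group set to their bound). FLS1, flavonol synthase, fell by 3.58 ± 0.172 in bbx28-5 and had a log2 change of -3.88 ± 0.169 in Col-0. CHS, chalcone synthase, had 57.3, 57.4 and 62.2 CPM in bbx28-5 in shade, 25.3, 24.1 and 22.1 CPM in Col-0 in shade, 83.2, 88.5 and 89.5 CPM in bbx28-5 under white light and 70.5, 61.5 and 94.9 CPM in Col-0 in white light. It fell less in bbx28-5, with an interaction of 1.10 ± 0.19 (edgeR adjusted p = 0.00322), opposite in sign to PAL1. MYB12, an activator of flavonol genes, had an interaction of 1.04 ± 0.293 (edgeR adjusted p = 0.0378) that did not pass without any 1 of 8 libraries (the 6 of white light and replicates 2 and 3 of Col-0 in shade). In shade 2 of the 9 were higher and 1 lower in bbx28-5, and in white light none was called.

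**Figure D5:**
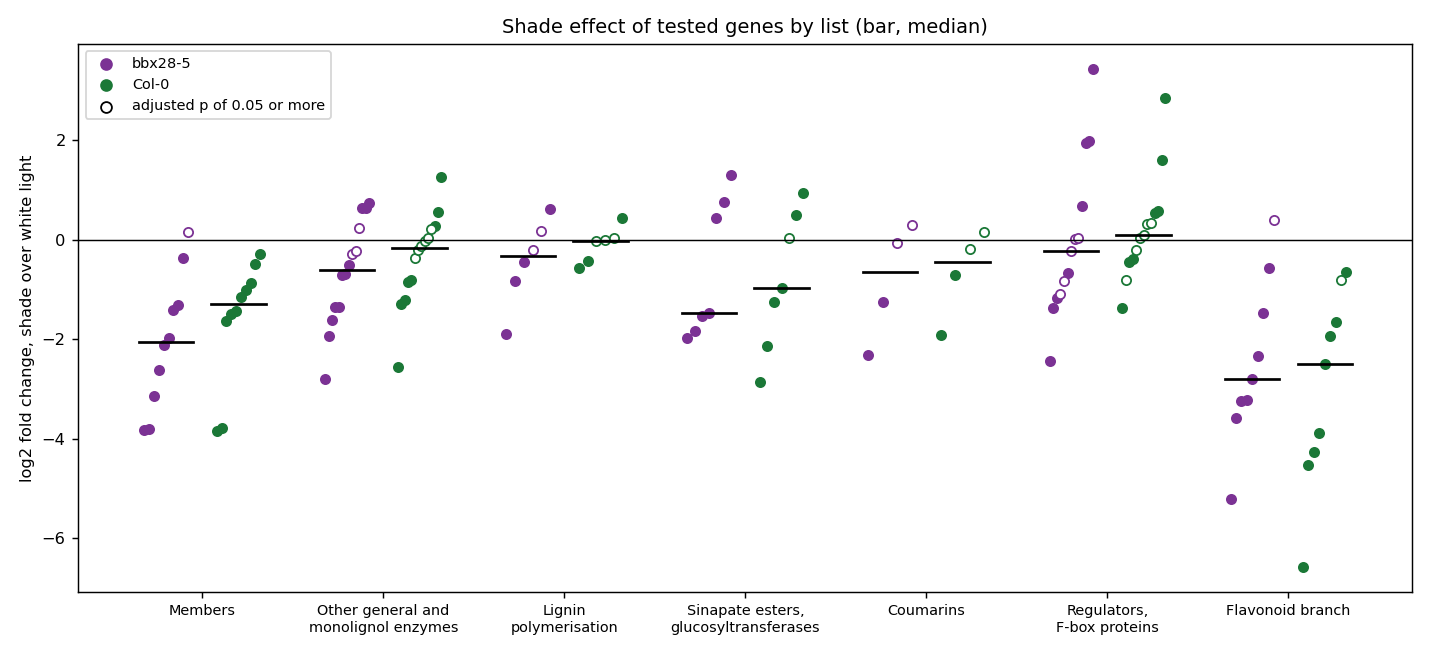
Log2 shade effect (shade over white light, y axis) of every tested gene of 7 lists in bbx28-5 (purple) and Col-0 (green), with filled points past an adjusted p of 0.05 and the list median as a bar. The 10 members and the flavonoid branch have the lowest medians, the regulators and F-box proteins lie on both sides of 0, and points of flavonoid genes with 3 or fewer counts in a group depend on the prior count of the fit.

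Markers of other tissues also differed between the genotypes. Of all tested genes 14.5% were lower in bbx28-5 in shade and 6.08% in white light. All 5 endodermis and suberin markers were lower in bbx28-5 in both lights, and their summed level was 58.4 to 60.6 CPM in bbx28-5 in shade, 167 to 188 CPM in Col-0 in shade, 99.6 to 109 CPM in bbx28-5 under white light and 214 to 221 CPM in Col-0 in white light. ASFT, the feruloyltransferase of suberin that uses products of this pathway, had an interaction of -1.69 ± 0.148 (edgeR adjusted p = 5.37e-05). Of 5 xylem markers 3 were lower in bbx28-5 in shade and 1 in white light, with sums of 137 to 161 CPM in bbx28-5 in shade, 176 to 186 CPM in Col-0 in shade, 126 to 131 CPM in bbx28-5 under white light and 152 to 168 CPM in Col-0 in white light. Of 4 root hair markers 3 were lower in bbx28-5 in shade and 2 in white light, with sums of 66.8 to 74.7 CPM in bbx28-5 in shade, 63.5 to 112 CPM in Col-0 in shade, 70.1 to 82.7 CPM in bbx28-5 under white light and 101 to 124 CPM in Col-0 in white light.

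Markers of green tissue and seed went the other way. Of all tested genes 20.9% were higher in bbx28-5 in shade and 3.8% in white light. All 4 photosynthetic markers were higher in bbx28-5 in shade and none was called in white light, with sums of 33200 to 47600 CPM in bbx28-5 in shade, 22800 to 26100 CPM in Col-0 in shade, 44800 to 45300 CPM in bbx28-5 under white light and 40400 to 44800 CPM in Col-0 in white light. Of 4 seed markers 3 were higher in bbx28-5 in each light, with sums of 77.2 to 444 CPM in bbx28-5 in shade, 40.5 to 106 CPM in Col-0 in shade, 96.9 to 167 CPM in bbx28-5 under white light and 43.5 to 94.3 CPM in Col-0 in white light. No marker was at 0 in all libraries, while the seed genes SESA3 and SESA4 were at 0 in some libraries of Col-0. The part of these tissues in the differences between the genotypes of the 10 genes was not tested.

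Among 12705 genes whose log2 CPM averaged 3 or more, the profiles most like PAL1 over the 12 libraries were those of sks4 (Pearson r = 0.9955), AT5G43740 (0.9951) and AT5G20700 (0.9945). The nearest to 4CL3 were PCB2 (0.9965), COL2 (0.9946) and AT1G54820 (0.9925), and to F5H the transketolase gene AT3G60750 (0.9984), Tic62 (0.9975) and AT1G27480 (0.9971). These values describe a likeness across 4 groups of 3 libraries that share 1 light contrast. Group levels of the nearest genes follow from their choice by likeness and are given as description only. Those nearest to PAL1 averaged least in bbx28-5 in shade. There sks4 had 23.6 CPM, with 47.3 CPM in Col-0 in shade, 73.2 CPM in bbx28-5 under white light and 83.5 CPM in Col-0 in white light. AT3G60750, nearest to F5H, had 518 and 507 CPM in bbx28-5 and Col-0 in shade and 1893 and 1717 CPM in bbx28-5 and Col-0 in white light.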

How the data were processed

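The authors deposited raw counts of reads per gene for 32833 genes in 12 libraries, and a filtered table on the log2 scale. Per the labels' protocols, a stranded kit for mRNA was used, and per the submitters' processing notes FastQC, HISAT, SAMtools, HTSeq and edgeR were used on the TAIR10 build, with no versions. The deposited log2 values are CPM after TMM scaling for 19724 genes, and recomputing them from the counts gave differences of at most 5e-14.

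From the counts, filterByExpr of edgeR 4.0.16 (R 4.3.3) kept 19711 genes with 99.93% of all counts. A quasi-likelihood model with a mean for each of 4 groups was fitted to all 12 libraries with TMM scaling, and p-values were adjusted by the Benjamini-Hochberg method over all tested genes. The SE comes from the test statistic and a spread shared by the groups. Settings tried were other size factors, total counts, other filters, DESeq2 1.42.0, limma 3.58.1, only the groups compared, a replicate block, each library left out and a length offset. The length offset took out, for each library, a smooth trend of log2 CPM on exonic length. The code recovered fold changes in simulated data, where few genes changed and only in Col-0 in shade. Changes in most genes and a divergent replicate, as in these data, were not simulated.

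No libraries were duplicates. Over 18 pairs of libraries with equal replicate numbers, correlations of deviations were -0.123 to 0.0975, so no pairing was seen over genes as a whole. Such values cannot tell whether these libraries shared a harvest, because a weak effect or one on few genes would give similar correlations. Intervals of fold changes come from the fit and include the spread between libraries, while the floor of 3 counts covers counting error only.

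Named are the 10 members, up to 4 genes per list and comparison with the smallest adjusted p, and the 3 nearest profiles of PAL1, 4CL3 and F5H. List genes with a called interaction and the suberin gene ASFT were also named after their values were seen. Members and lists were chosen with earlier results of these data known. Identifiers that did not match the annotation symbol were dropped from the lists. Gene models, windows and coordinates come from TAIR10.1, in which 32548 identifiers matched. Sequence comparisons used Biopython 1.88.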

Additional observations from a re-analysis of the deposited data

Results flagged for a closer look

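The shade effect differed between the genotypes, by the interaction term of the edgeR fit, for 4 of the 10 genes and for 8 list genes. Of all tested genes 10.3% had a called interaction. As log2 differences of bbx28-5 minus Col-0 the values were -1.65 for PAL1, -0.99 for 4CL1, -0.83 for 4CL2 and 0.46 for C4H. Of the list genes, PAL4 had -1.80, LAC11 -1.47, MYB4 -1.06 and LAC17 -0.86, and CHS had 1.10, MYB12 1.04, UGT84A3 0.72 and KFB20 0.58. The interactions of C4H, UGT84A3, KFB20 and MYB12 did not pass with total counts, which moved all genes by -0.291 (edgeR adjusted p = 0.314, 0.101, 0.165 and 0.0794). KFB20 no longer passed without any 1 of the 3 bbx28-5 white light libraries, replicates 1 and 3 of Col-0 in shade or replicate 2 of Col-0 in white light. UGT84A3 did not pass without replicate 1 of bbx28-5 in white light, replicate 1 of Col-0 in shade or replicate 3 of Col-0 in white light.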

How the results depend on the processing

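Among 1040 values of the 10 genes under the alternatives, 1002 kept their side of the threshold and any called direction, 14 lost a call, 23 gained one and 1 called value changed sign (31 uncalled values also changed sign). The same held for 5191 of 5498 values of other list genes, with 162 calls lost, 143 gained and 2 reversed. With total counts C4H in bbx28-5 turned to -0.1845 (adjusted p = 0.0404), MYB7 to -0.3381 and REF1 between genotypes in shade to -0.01253, none of the 10 genes was called higher in bbx28-5 in shade or for the interaction (0 each), and 6 of the 10 were called lower in each, with HCT added in shade. A length offset, chosen after seeing the data, gave 1 gene higher in shade in bbx28-5 (C4H), 2 higher in bbx28-5 in shade, 1 higher in white light and 6 lower for the interaction. DESeq2 called 1 higher in white light and 5 lower for the interaction. With only the groups compared 1 was higher and 2 lower in white light. The genotype difference of the 4CL3 share was 0.6593 on the log2 odds scale (adjusted p = 0.09). The causes were not tested beyond the shift of all genes.

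Leaving out 1 library each gave 1 to 2 genes higher and 4 to 6 lower in bbx28-5 in shade, 0 to 1 higher and 1 to 2 lower in white light, and 0 to 1 higher and 3 to 6 lower for the interaction. It gave 1.0788 to 2.0861 points for the genotype difference of the 4CL3 share and 0.0696 to 0.1448 for the shade difference of CCoAOMT1 to HCT. Where that leaves an arm of 2 libraries, they share the spread of the other groups. With the replicate block, 9 of the 10 genes fell in bbx28-5, 10 in Col-0, 5 were lower and 1 higher in bbx28-5 in shade, 1 was lower in white light, and 3 were lower and 1 higher for the interaction, as without it. Among named list genes CAD5 in white light (adjusted p = 0.0503) and MYB12 for the interaction (adjusted p = 0.0591) lost their calls with the block. Depth limits 4CL3 in shade, at 3 to 14 counts per library.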
